A study of Drosophila melanogaster with 6 samples.

Results

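HP2 sites in the euchromatic part of the left arm of Drosophila melanogaster chromosome 2 (2L) are described here. A site is an enriched region on 2L whose midpoint lies at or below position 21011544 of FlyBase release 5, which leaves out the 2 Mb at the centromere side of the 23011544 bp arm. The combined list, which covers the replicate set as a whole, held 417 such sites among 5179 regions. The lists of the single chromatin immunoprecipitation (ChIP) libraries held 96 of 2488 regions in replicate 1, 202 of 3132 in replicate 2 and 212 of 3190 in replicate 3. The study mapped HP2 by ChIP-seq with the antibody Ab2-90 in whole wild-type embryos of the strain Oregon-R, aged 14 to 16 h and fixed with 1.8% formaldehyde. It comprises 3 HP2 ChIP libraries and 3 input libraries, and per the labels the matching input was the control for each replicate list. All libraries share genotype, strain and age, so HP2 ChIP over input is the contrast behind each region, and whole embryos mix cell types.

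HP2, the product of Su(var)2-HP2, is a partner of HP1a, the adaptor protein that reads the methylated histone mark of heterochromatin, and mutations in its gene suppress position-effect variegation. HP1a lies mainly around centromeres and on the small chromosome 4. On polytene chromosomes HP1a is also known from bands within the euchromatic arms, among them one in the middle of 2L, and proximal 2L is known to carry a source locus of piRNAs, the small RNAs that guide transposon silencing. Sites are named by position, because the only gene table used follows release 6, whereas the regions follow release 5. Which genes, promoters or repeats lie under them was therefore not analysed here.

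Each region came with a score of the authors, read here as a log2 value whose zero is unknown and compared only within a list. The lists carry no read totals, so the depth of the libraries is unknown and the precision of a single site cannot be stated. Whether the replicates are separate embryo collections is not labelled, so their spread may be technical. Replicate 1 had the shortest list on 2L and the fewest covered bases. Its median site length, at 1786 bp, was near those of replicate 2 (1887 bp) and replicate 3 (1897 bp). No region of a replicate list was shorter than 1301 bp, while combined regions went down to 1001 bp. Of the 417 combined sites, 138 (33.1%) were shorter than every replicate region.

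HP2 covered 0.881%, 2.05% and 2.10% of euchromatic 2L in replicates 1, 2 and 3, averaging 1.68% ± 0.69 (SD, n = 3), and 3.70% in the combined list. The 21 bins of 1 Mb were not alike. From 10 to 11 Mb the coverage was 4.60%, 8.52% and 7.46% in replicates 1, 2 and 3 (mean 6.86% ± 2.02, SD, n = 3). The bin from 20 to 21 Mb followed with 2.42%, 5.90% and 5.27% (mean 4.53% ± 1.85, SD, n = 3). In the other 19 bins the mean over the replicates ranged from 0.328% to 2.14%. The bin from 17 to 18 Mb was the least covered and the only one of the 21 without a site found in all 3 replicate lists. A stretch of 501743 bp with no combined region, from 16881641 to 17383383, reached into it.

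**Figure D1:**
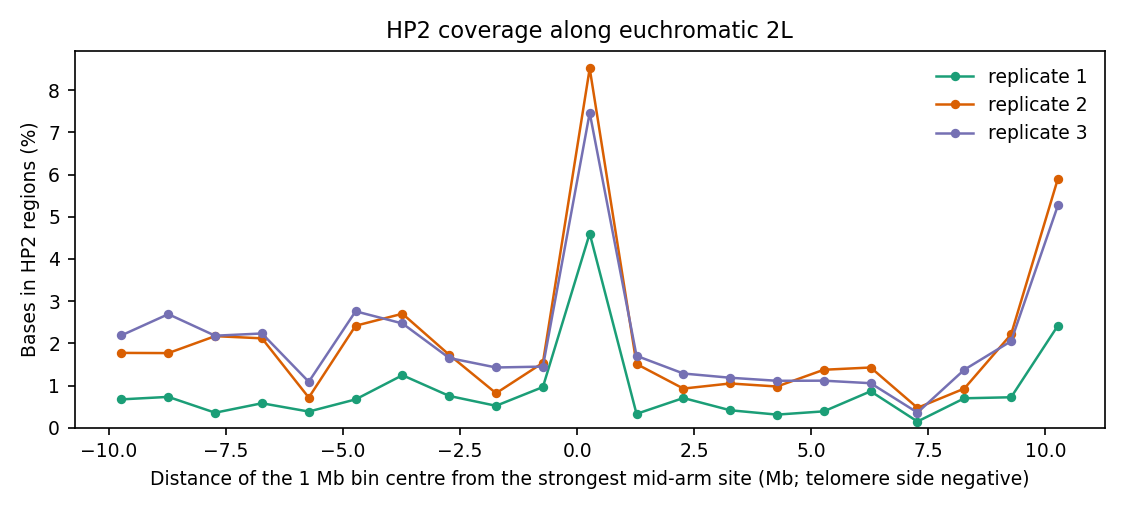
Percent of bases inside HP2 regions in 1 Mb bins of euchromatic 2L, for replicates 1, 2 and 3 (lines with points), against the distance of the bin centre from the strongest mid-arm site in Mb, with the telomere side negative. Each replicate is highest in the bin that holds that site (4.60%, 8.52% and 7.46%) and next highest in the last bin (2.42%, 5.90% and 5.27%).

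Of the 417 combined sites, 60 (14.4%, exact 95% binomial interval 11.2% to 18.1%) were found in all 3 replicate lists, that is, overlapped a region of each by at least 1 bp. The same share was 21.0% over the whole combined list and 10.8% on the parts of 2R, 3L, 3R and X beyond 2 Mb from the centromere side, called distal below. A further 176 sites (42.2%) were found in no replicate list, against 33.5% of the whole list and 44.7% on the other distal arms. Replicate 1 held 75 of the 417, replicate 2 held 196 and replicate 3 held 175. Of the 85 sites in exactly 2 lists, 75 were in replicates 2 and 3, and 5 sites were found in replicate 1 alone. Being found went with length: sites in all 3 lists had a median of 2224 bp, and those in none had 1168 bp. A longer site meets the rule of 1 bp more easily. With an overlap of at least 50% of the shorter region, the share in all 3 lists was 14.4%. With at least 50% of both regions it was 12.5%. How much length adds to being found was not tested. Of the 138 sites shorter than every replicate region, 118 were in no replicate list, against 58 (20.8%) of the 279 longer ones.

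Among stretches of 300 kb, HP2 covered euchromatic 2L most densely around 10.2 to 10.5 Mb. This window, which had been picked out from earlier results of these data, is described without a test. It held 36 combined sites, 14 of them in all 3 replicate lists and 9 in none. HP2 regions covered 14.3%, 25.8% and 23.7% of it in replicates 1, 2 and 3 (mean 21.3% ± 6.13, SD, n = 3). Euchromatic 2L outside this window and a second one near the centromere side was covered over 0.643%, 1.54% and 1.66% in the same lists (mean 1.28% ± 0.55, SD, n = 3). With 1.43% of the length of euchromatic 2L, the window held 19.1% ± 3.67 (SD, n = 3) of its covered bases. The share was highest in replicate 1, at 23.2%, where the list as a whole was shortest.

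The strongest site of the window ran from 10225604 to 10234516, over 8913 bp, with a combined score of 2.20 (place 99 of 5179). It was 1 region in each replicate, with scores of 2.02, 2.39 and 2.49 in replicates 1, 2 and 3, at places 17, 24 and 33 of those lists. It is followed after a gap of 111 bp by the site from 10234628 to 10240424, with a combined score of 2.06 and replicate scores of 2.05, 2.22 and 2.51. Every replicate list also split this stretch into 2 regions, with gaps of 2803, 1427 and 2083 bp, and covered 74.6%, 89.5% and 85.9% of it. The site from 10402400 to 10409320 stood about as high, with a combined score of 2.17 and replicate scores of 1.99, 2.25 and 2.38. These 3 sites were the top 3 members in each replicate list, though not in the same order. In all 3 lists the fourth was the site from 10421266 to 10424950 (combined score 1.63; 1.48, 1.74 and 1.81 in replicates 1, 2 and 3).

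Around these, 10 further sites of the window were in all 3 lists. The site at 10384634 to 10389112 scored 1.33 in the combined list and 1.16, 1.44 and 1.56 in replicates 1, 2 and 3. That at 10353098 to 10358100 scored 1.27, with 1.42, 1.38 and 1.70 in the replicates. Combined scores over 1 were also reached at 10219530 to 10222412 (1.14), 10429818 to 10432400 (1.10) and 10259650 to 10266496 (1.08). The last of these differed in extent between the libraries, with 2154 bp in replicate 1 against 6685 and 5823 bp in replicates 2 and 3. Just under 1 stood the site at 10371350 to 10373568 (0.98). The remaining sites, at 10303120 to 10305322, 10311126 to 10315816, 10333090 to 10336022 and 10364426 to 10367740, had combined scores of 0.57 to 0.69. The highest site of the window outside these 14 ran from 10374784 to 10377380, scored 0.60 and was absent from replicate 1. Centres of neighbouring sites among the 14 lay 6.38 to 41.1 kb apart, with a median of 14.4 kb.

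The order of the 14 sites by score was much the same in each library. Over these sites, Spearman's rho was 0.90 (Pearson's r 0.96) between replicates 1 and 2, 0.85 (r 0.93) between 1 and 3 and 0.92 (r 0.97) between 2 and 3. These describe sites of neighbouring chromatin in libraries that share their protocol, and carry no p. In the window length and score went together (rho 0.79 and r 0.87 over 36 sites). Over all sites outside it rho was 0.11 and r 0.11 (381 sites), whereas over the 60 sites in all 3 lists, 46 of them outside the window, rho was 0.64 and r 0.56. Presence in the lists varied among weak sites of the window, as those missing from a list had combined scores of at most 0.60. Replicate 1 held 15 regions there, replicate 2 held 25 and replicate 3 held 23. Stronger sites could vary in length, as at 10259650 to 10266496, with 2154, 6685 and 5823 bp in replicates 1, 2 and 3. Between them the HP2 regions of the window left gaps with a median of 3133 bp in the combined list, against 22127 bp along euchromatic 2L.

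**Figure D2:**
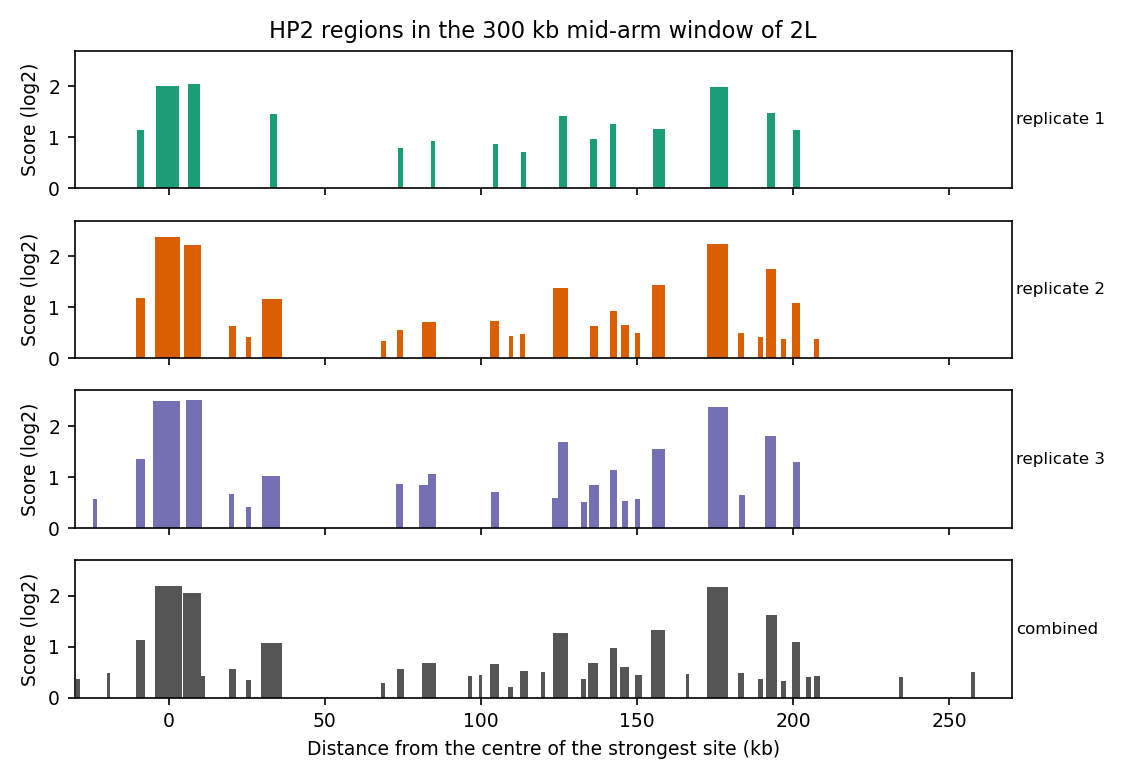
HP2 regions of replicates 1, 2 and 3 and of the combined list in the 300 kb mid-arm window, drawn to scale as bars whose width is the region and whose height is its log2 score (zero unknown), against the distance in kb from the centre of the strongest site. The same tall regions appear in each list, with scores of 2.02, 2.39 and 2.49 at the strongest site, and the low regions between them are fewest in replicate 1.

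The second dense part, between 20.1 and 20.2 Mb, was likewise picked out from earlier results. Over its shorter length it was more densely covered than the mid-arm window in replicates 2 and 3 but not in replicate 1. Over a like length of 300 kb it was less covered in every list. The stretch from 19990001 to 20290000 had 6.06%, 14.9% and 12.4% in replicates 1, 2 and 3, against 14.3%, 25.8% and 23.7% in the mid-arm window. HP2 covered 9.72%, 36.6% and 29.1% of the 100 kb proximal window in replicates 1, 2 and 3 (mean 25.1% ± 13.9, SD, n = 3). With 0.476% of the length it held 6.78% ± 1.63 (SD, n = 3) of the covered bases of euchromatic 2L. Of its 11 combined sites, 5 were in all 3 replicate lists. Median lengths of its regions were 1495, 2402 and 2096 bp in replicates 1, 2 and 3, against 1721, 1836 and 1872 bp elsewhere on euchromatic 2L, so in replicate 1 they were the shorter. The longest site of euchromatic 2L ran here from 20096654 to 20108222, over 11569 bp, with a combined score of 0.86. It was 1 region of 11466 bp in replicate 2 and was broken into 2 regions each in replicates 1 and 3.

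The neighbours of this longest site, from 20108280 to 20114476 and from 20114590 to 20121964, followed after gaps of 57 and 113 bp, with combined scores of 0.66 and 0.69. The whole stretch of 25.3 kb was covered over 35.1% in replicate 1, 90.6% in replicate 2 and 87.1% in replicate 3. Replicate 1 thus stood apart from the other lists. Beyond it, the sites from 20147128 to 20149492 and from 20179294 to 20183724 were in all 3 lists, with combined scores of 0.41 and 0.64. The highest of the other sites, from 20192020 to 20197466, scored 0.74 and was in replicates 2 and 3. In the cluster from 20169528 to 20214552 coverage was 3.32%, 37.2% and 17.0% in replicates 1, 2 and 3, so replicate 1 was low there as well.

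The order of the windows by site length depended on the list. Sites in all 3 lists had a median length of 4082 bp and a median combined score of 1.12 in the mid-arm window (14 sites), against 6197 bp and 0.66 in the proximal window (5 sites). In the replicate lists the median region length was 2366, 2318 and 2517 bp in the mid-arm window, longer than in the proximal window in replicates 1 and 3 and shorter in replicate 2. Elsewhere on euchromatic 2L the 41 sites in all 3 lists had medians of 2115 bp and 0.57. Medians of the matching replicate scores were 1.21, 1.18 and 1.32 in the mid-arm window, and 0.93, 0.79 and 0.85 in the proximal window, for replicates 1, 2 and 3. Elsewhere they were 0.80, 0.57 and 0.70, so the order of the 3 groups was the same in each list. No test was run, because the windows were chosen on these values.

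**Figure D3:**
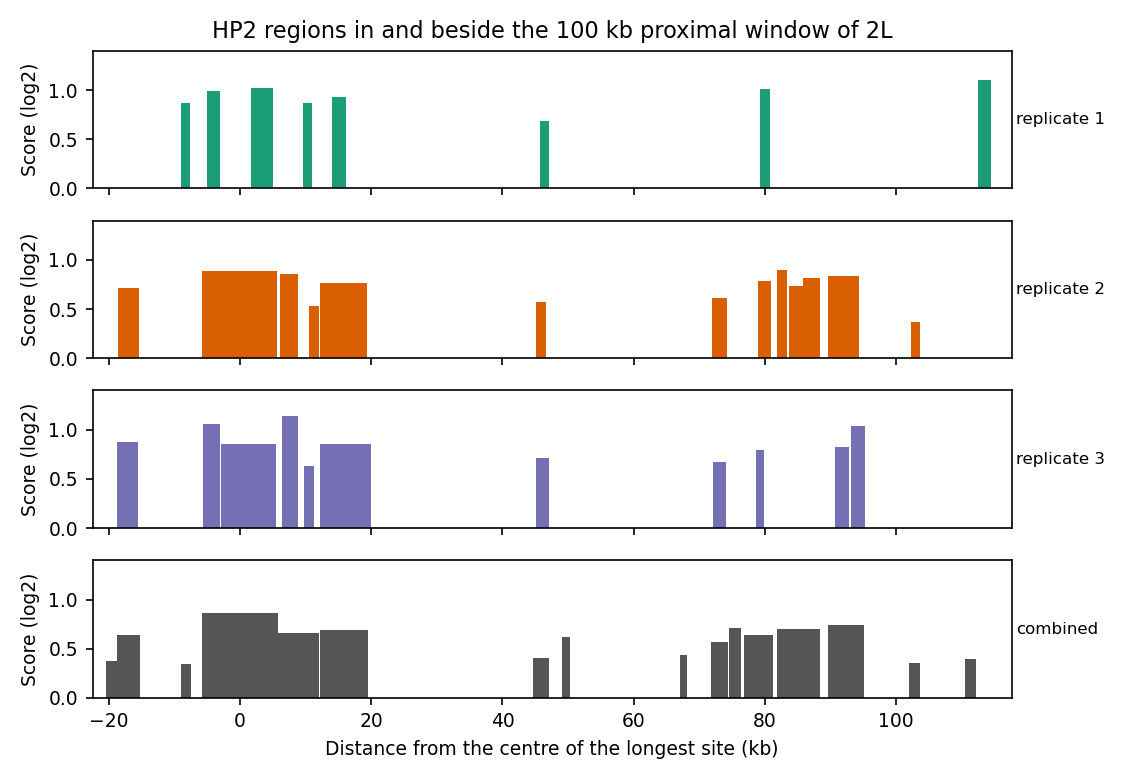
HP2 regions of replicates 1, 2 and 3 and of the combined list in the 100 kb proximal window with 20 kb on each side, drawn as in the plot of the mid-arm window, against the distance in kb from the centre of the longest site. Broad regions fill the stretch around that site in replicates 2 and 3 (90.6% and 87.1% of it) and only parts of it in replicate 1 (35.1%).

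High scores outside the windows were of 2 kinds. Of the 417 sites, 15 (3.60%) had a combined score over 1, against 18.2% of the whole combined list and 2.34% of the other distal arms. The mid-arm window held 9 of them, all found in all 3 replicate lists. Another 2 sites, from 3661468 to 3663624 and from 9698254 to 9701546, were also in all 3. The first of them scored 1.26 in the combined list and 1.39, 1.25 and 1.27 in replicates 1, 2 and 3, with no other combined region within 28331 bp. The second scored 1.08 in the combined list and 1.17, 1.24 and 1.38 in the replicates.

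The other 4 sites with a combined score over 1 were found in no replicate list. They were 1001 to 1075 bp long, shorter than every replicate region. Of the 138 sites as short as that at any score, 118 (85.5%) were in no replicate list. The site from 17691240 to 17692240 had the highest score of euchromatic 2L, 3.59, at place 4 of the whole combined list. Its exact score was shared by 12 regions of that list. The next, from 13599262 to 13600262, scored 3.37, a value shared by 9 regions. The sites at 354282 to 355356 and at 15653830 to 15654876 had scores of 2.16 and 1.23, values shared by 10 and 7 regions. Each of the 11 high sites in all 3 lists had a score of its own, except the site from 10219530 to 10222412, whose score occurred 2 times. Among the 15 sites with a score over 1, 11 were thus in all 3 lists and 4 in none. The counts were 19 and 18 of 47 such regions on the other distal arms, and 367 and 274 of 943 in the whole list. Of all 417 sites, 60 were in all 3 lists. A high combined score by itself therefore did not always mark a site seen in the single libraries.

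**Figure D4:**
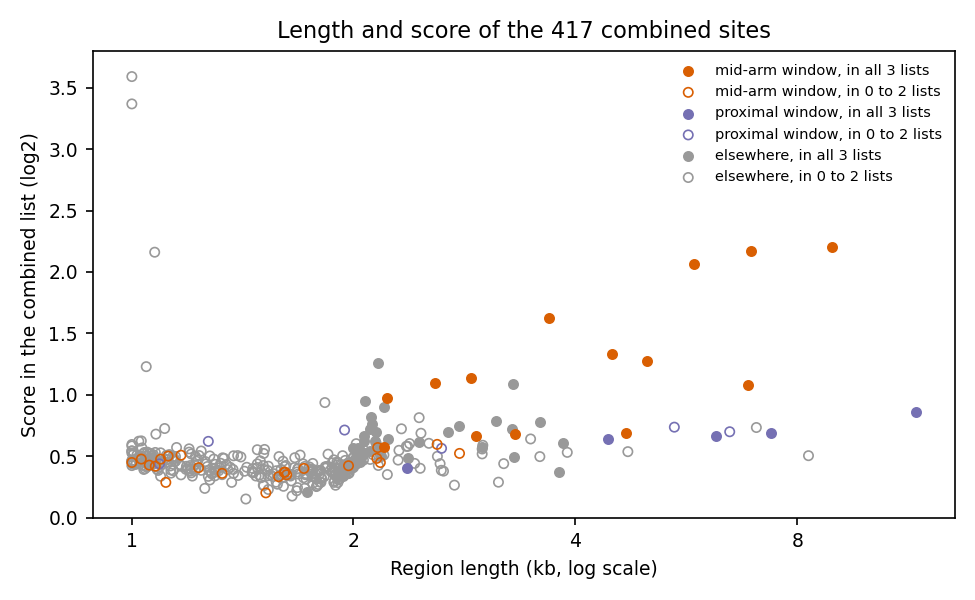
Score in the combined list (log2, zero unknown) against region length in kb (log axis) for the 417 combined sites, coloured by window, filled where a site was found in all 3 replicate lists. Filled mid-arm sites reach scores of 2.20, filled proximal sites reach a length of 11569 bp at scores up to 0.86, and the sites near 1 kb with scores up to 3.59 are open.

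Dense clusters were defined as chains of at least 5 combined regions with gaps of at most 10 kb. Euchromatic 2L held 6, with 55 sites (13.2% of 417), and 31 of these sites lay in the mid-arm window. The window held the clusters from 10200486 to 10266496 (9 sites) and from 10326070 to 10438612 (22 sites). HP2 covered 34.8% ± 9.71 of the smaller and 30.8% ± 8.39 of the larger (SD, n = 3 each). Near the centromere side the clusters ran from 20082086 to 20121964 (6 sites, 51.6% ± 22.3) and from 20169528 to 20214552 (8 sites, 19.2% ± 17.0; SD, n = 3 each). The clusters from 521464 to 544904 and from 7976654 to 8001752 had 5 sites each and lay outside both windows. They held 0 and 1 sites in all 3 lists, and their coverage was 7.02% ± 6.08 and 11.3% ± 2.97 (SD, n = 3 each). Their highest sites were 539670 to 542124, with a score of 0.81 and found in 2 replicate lists, and 7976654 to 7977762, with a score of 0.73 and found in none.

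Over all 6 clusters, 4 of them at the windows picked out on these data, clustered sites were found in single libraries more often than isolated sites. Isolated sites were those with no other combined region within 50 kb. Of the 55 clustered sites, 20 (36.4%), 34 (61.8%) and 29 (52.7%) were in replicates 1, 2 and 3. Of the 44 isolated sites, 3 (6.82%), 14 (31.8%) and 14 (31.8%) were. On the other distal arms these shares were 14.3%, 41.9% and 40.8% over all combined regions, and in the whole list 28.0%, 54.7% and 48.6%. The difference was 29.5, 30.0 and 20.9 percentage points in replicates 1, 2 and 3 (mean 26.8 ± 5.12, SD, n = 3), and had the same sign in 3 of 3 lists. No test is attached, because 31 of the 55 clustered sites lie in the mid-arm window, which was picked out on these data. The clusters of 6 and 8 sites at the proximal window fall under the same limit. The clusters outside both windows, of 5 sites each, had 0 and 1 sites in all 3 lists and 4 and 3 in none. The difference was not computed with both windows left out.

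In all 3 lists were 17 clustered sites (30.9%, exact 95% binomial interval 19.1% to 44.8%) and 3 isolated sites (6.82%, 1.43% to 18.7%). The 318 sites that were neither gave 40 (12.6%, 9.14% to 16.7%). Median combined scores were 0.52 for clustered and 0.43 for isolated sites. Clustered sites were also longer, with medians of 1995 bp against 1431 bp. Among sites of 1301 to 3000 bp, a limit set after seeing the data, 5 of 28 clustered sites (17.9%) and 3 of 24 isolated sites (12.5%) were in all 3 lists. In that length range replicate 1 held 28.6% of the clustered and 12.5% of the isolated sites, and replicate 2 held 67.9% and 54.2%. Replicate 3 held 50.0% of the clustered and 54.2% of the isolated sites, so the sign was turned there. Outside the mid-arm window 5 of 24 clustered sites (20.8%, 7.13% to 42.2%) were in all 3 lists. Sites outside both that window and the clusters gave 41 of 357 (11.5%, 8.37% to 15.3%). Sites are not replicates and those of a cluster are neighbours, so these intervals cannot decide whether the groups differ. Of the 5 clustered sites, 3 and 1 lay in the clusters at the proximal window, which was picked out on these data.

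The 3 isolated sites in all 3 lists differed in strength. The first, from 1300984 to 1302942, had no combined region within 157213 bp and scored 0.45 in the combined list and 0.80, 0.42 and 0.55 in replicates 1, 2 and 3. That from 14688246 to 14690178, alone over 196725 bp, scored 0.34 in the combined list and 0.80, 0.33 and 0.49 in the replicates. The third, from 6785846 to 6788836, scored 0.57 in the combined list and 0.53, 0.64 and 0.86 in the replicates. The third stood at place 65 of the 417 combined sites, while the others stood at places 199 and 369. In replicate 1 all 3 had low places, 2093, 2108 and 2462 of 2488. Low places there were not particular to isolated sites. The 41 sites in all 3 lists outside the windows had a median place at 84.1% of the replicate 1 list. In the same order, places were 2831, 3056 and 1809 of 3132 in replicate 2, and 2747, 2948 and 1322 of 3190 in replicate 3.

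**Figure D5:**
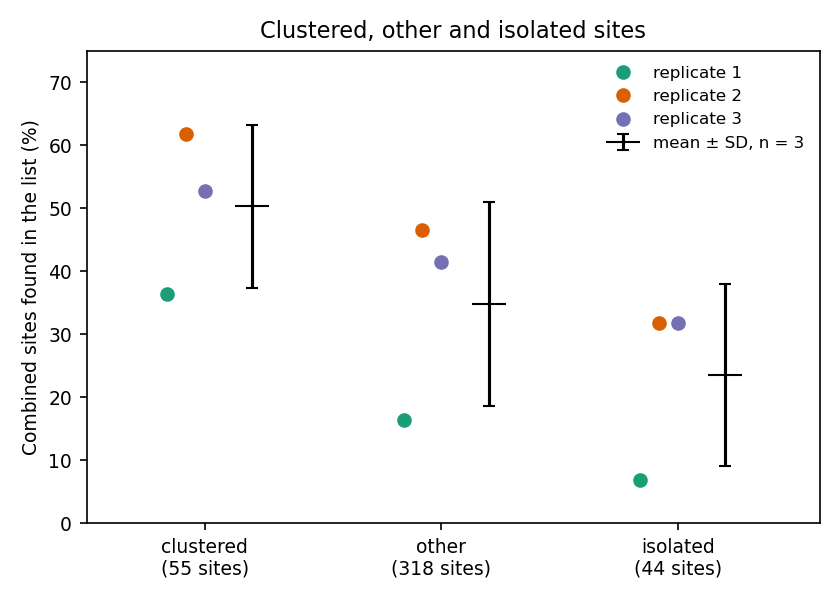
Percent of clustered, other and isolated combined sites of euchromatic 2L found in replicates 1, 2 and 3 (points), with the mean and SD over the 3 lists beside them. Within each replicate the clustered sites lie highest (36.4%, 61.8% and 52.7%) and the isolated sites lowest (6.82%, 31.8% and 31.8%). Of the 55 clustered sites, 31 lie in the mid-arm window, which was picked out on these data.

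Long sites without high scores also occurred outside the windows. The site from 9996746 to 10005026 was 8281 bp long and scored 0.51, and replicates 1 and 2 held 1 and 2 shorter regions of it. The site from 3252034 to 3259070, of 7037 bp and score 0.73, was in replicates 2 and 3. At the telomere side the first combined site ran from 17886 to 19638, scored 0.39 and was in replicate 3. The region nearest the tip, from 849 to 2805 with a score of 1.10, was in the replicate 1 list alone and in no other list. Next to the division of the arm, the last sites inside ran from 20863990 to 20866032 (score 0.48, in all 3 lists) and from 20890614 to 20892460 (score 0.52, in replicate 2). The first regions beyond it were 21032530 to 21034088 (score 0.41, in 2 lists) and 21051038 to 21053038 (score 0.45, in 3 lists). Values at the limit were therefore alike on both sides, while the 2 Mb beyond it as a whole was covered over 31.0% ± 8.66 (SD, n = 3).

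Euchromatic 2L was compared with the other distal arms within each list. Its 0.881%, 2.05% and 2.10% stood against 0.779%, 1.87% and 2.10% of the other 4 arms together in replicates 1, 2 and 3, ratios of 1.13, 1.10 and 1.003, above 1 in 3 of 3 lists, with a mean of 1.08 ± 0.067 (SD, n = 3; exact two-sided sign-flip permutation test, p = 0.25, the smallest possible). The ratio was below 1 in the combined list (0.952), without the mid-arm window (0.883) and with 1 Mb in place of 2 Mb left out at the centromere side of each arm (0.707). By arm, 2L was covered 1.26 ± 0.091 times as densely as 3L and 1.38 ± 0.11 times as 3R, and the ratio was above 1 in 3 of 3 lists for both (exact sign-flip permutation test, adjusted p = 0.33 over the 4 arms). Against 2R it was 0.885 ± 0.071, below 1 in 3 of 3 lists (exact permutation test, adjusted p = 0.33). Against X it was 1.08, 0.807 and 0.782 in the 3 lists, on both sides of 1 (mean 0.890 ± 0.17, SD, n = 3; exact permutation test, adjusted p = 0.50).

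The arms were then compared in their densest stretches. When the most covered 300 kb of each distal arm was picked by the same sliding search, 2L reached 21.5% ± 6.32, 2R 15.8% ± 3.26, X 9.58% ± 5.17, 3L 9.34% ± 3.17 and 3R 4.68% ± 2.63 (SD, n = 3 each). On 2L the search gave the stretch from 10210001 to 10510000, nearly the mid-arm window. That window had been picked out on the same data, so this is no independent finding. The centre of the 2L stretch lay 10.7 Mb from the division of its arm. The 2R stretch, from 2100001 to 2400000, had its centre 0.25 Mb from that of 2R. In replicate 1 the 2L stretch was the less covered, at 14.3% against 19.1% on 2R, and in replicates 2 and 3 the ratio of 2L to 2R was 1.68 and 1.88. Against 3L, 3R and X the 2L stretch was more covered in 3 of 3 lists, by 2.09 to 2.52, 3.59 to 8.49 and 1.87 to 3.97 times. The stretches were chosen as the maxima of these values, so no test is attached. The highest score there was 2.20 on 2L, against 1.59 on 2R, 1.93 on X, 0.96 on 3L and 0.83 on 3R.

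Agreement between the libraries on euchromatic 2L followed the size of the lists. Of the 96 sites of replicate 1, 69.8% overlapped a region of replicate 2 and 68.8% one of replicate 3. Of the replicate 2 sites, 67.8% had a partner in replicate 3 and 32.7% in replicate 1. For replicate 3 sites the shares were 66.5% in replicate 2 and 31.1% in replicate 1. The mean of the 6 directions was 56.1%, against 48.0% to 55.4% on the distal parts of 2R, 3L, 3R and X. Without the mid-arm window it was 52.5%. Scores of overlapping sites had a rho of 0.64 (r 0.88) over 67 pairs of replicates 1 and 2, 0.63 (r 0.86) over 66 pairs of 1 and 3, and 0.76 (r 0.94) over 137 pairs of 2 and 3. Outside the mid-arm window rho was 0.40, 0.40 and 0.69 and r was 0.51, 0.50 and 0.80 for the same pairs, lower in each case. The 60 sites in all 3 lists had their starts within a median of 290 bp of each other and their ends within 230 bp.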

How the data were processed

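The sources were lists of enriched regions: 1 for each of 3 HP2 ChIP libraries and 1 for the replicate set. Inputs entered only through these calls. The submitters' processing notes name Bowtie 0.12.7, and coordinates follow FlyBase release 5, per the file headers. The caller, its threshold and how replicates were combined: not given in the sources used here. The authors deposited a score per region, taken as log2 because differences between common scores matched log2 of small whole-number ratios (9 to 16 of 29 per list at a tolerance of 1e-06, against at most 1 in base e or 10).

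Overlaps (1 bp), covered bases, gaps and chains of regions were computed in Python 3.11.15 with matplotlib 3.10.9, scipy 1.17.1, pandas 2.3.3 and numpy 2.4.6, with code tested on simulated lists. Neighbours were counted among all combined 2L regions. Errors are SD over 3 replicate lists, and 95% intervals cover counting error over sites only. Sign-flip tests compare lists, adjusted by Benjamini-Hochberg over 4 arms. Named sites were the 10 strongest in all 3 lists, the isolated ones in all 3, the 5 longest, window sites in all 3, the leading site of each cluster and replicate, and those at the limits. The 4 high sites in no list, beyond the first, were added after their values were seen. Members, windows and rules were chosen with earlier results of these data known. Alternatives covered overlap, cluster and arm limits, score, length and leaving out each replicate.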

Additional observations from a re-analysis of the deposited data

How the results depend on the processing

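No paired analysis was possible because the inputs, the only other group of libraries, gave no per-library values to pair with the ChIP lists. Contrasts between parts of the genome were taken within each replicate list. Of 87 alternatives over 10 results, 45 stayed within the spread between replicates, the binomial interval or 1.5 times the count. Coverage of euchromatic 2L was 1.47% to 2.08% when a replicate was left out, 0.557% for regions above the median score of their list ("high scorers" below) and 3.70% in the combined list. The share of sites in all lists was 15.3% to 32.4% with a replicate left out (highest without replicate 1), 21.3% among high scorers and 21.5% without sites under 1301 bp. Without the mid-arm window this share was 12.1%. Sharing between replicate lists was 49.9% to 67.2%, highest without replicate 1. The 6 clusters became 3 with gaps of 5 kb, 11 with at least 4 regions, 3 with at least 8 and 3 among high scorers. Clustered sites made up 6.47% with gaps of 5 kb, 18.2% with 20 kb, 18.0% with at least 4 regions, 9.35% with at least 8, 20.0% among high scorers and 6.30% without the mid-arm window. Clustered minus isolated sites in all 3 lists was 24.1 percentage points as reported, 22.3 to 27.7 with a replicate left out, 18.5 with at least 4 regions, 14.2 with isolation over 100 kb, 29.5 without sites under 1301 bp, 15.0 with 50% overlap both ways, 14.0 without the mid-arm window and 5.36 among sites of 1301 to 3000 bp. The median score difference of 0.092 was 0.13 with gaps of 5 kb, 0.052 with 20 kb, 0.052 with at least 4 regions, 0.11 with isolation over 100 kb, 0.25 without sites under 1301 bp, 0.29, 0.33 and 0.30 by replicate 1, 2 and 3 scores, 0.12 without the mid-arm window and 0.059 among sites of 1301 to 3000 bp. Mid-arm coverage over the rest, 17.8 times as reported, was 15.6 to 19.6 with a replicate left out, 69.7 among high scorers, 10.6 in the combined list and 10.9 by regions per Mb. For the proximal window, 18.8 times, it was 16.3 to 20.7, then 77.7 among high scorers and 12.5 by regions per Mb. Euchromatic 2L over the other distal arms, 1.08, turned below 1 with 1 Mb left out (0.707), in the combined list (0.952), by regions per Mb (0.994) and without the mid-arm window (0.883), and was 1.35 among high scorers and 1.05 to 1.11 with a replicate left out. The cause of these shifts was not tested. Settings without the mid-arm window and with the 3000 bp limit were added after seeing the data. Without read totals, low sites cannot be told from sites missed for depth.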
